A study of Mus musculus with 5 samples.

Results

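The antigen receptor recombination genes are Rag1, Rag2, Dntt, Xrcc5, Xrcc6, Prkdc, Lig4 and Dclre1c, 8 of 22372 protein-coding genes. They were chosen by name, as the genes whose products cut and rejoin DNA during V(D)J recombination. No measured value served as a criterion, but earlier results of these data were known when the choice was made. The question was where Cxxc1 bound and where H3K4me3 was listed at these genes in double-positive (DP) thymocytes, a developing T cell stage with CD4 as well as CD8 on the surface, when Cxxc1 was present and when it was lost. Chromatin immunoprecipitation with sequencing (ChIP-seq) was used. WT cells came from Cxxc1 fl/fl mice without Cre, and Cxxc1-deficient cells came from Cxxc1 fl/fl hCD2-Cre mice, in which the human CD2 promoter drives Cre from the early thymocyte stages and also in other immune cells. Both groups therefore carried the floxed allele, on a C57BL/6 background after backcrossing, and per the study's methods the mice were a few weeks old and the floxed band was gone by the DP stage. The Cxxc1-deficient samples are called KO in their titles, which were followed, but their genotype field reads Cxxc1+/-. Enriched places were listed for Cxxc1, for H3K4me3 of WT cells and for H3K4me3 of Cxxc1-deficient cells. The first of these lists carries no genotype of its own and is a WT list by the study's methods, which used the Cxxc1-deficient ChIP and input as controls. With 1 library behind each list, the differences below have no replicate check and carry no p-value. Whether fewer cells carried a mark or each cell carried less of it cannot be told apart in such bulk chromatin.

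V(D)J recombination assembles the antigen receptor genes of lymphocytes. Rag1 and Rag2 form the recombinase that cuts at recombination signal sequences, and the Rag2 subunit holds a PHD finger that reads H3K4me3, so this mark has a role in the reaction itself as well as at promoters. The broken ends are then handled by non-homologous end joining. The Ku heterodimer of Xrcc6 (Ku70) and Xrcc5 (Ku80) holds the ends, Prkdc (DNA-PKcs) is the kinase it recruits, Dclre1c (Artemis) is the nuclease that opens the hairpin ends, Dntt (terminal transferase) adds untemplated nucleotides and Lig4 is the ligase that seals the joint. Rag1 and Rag2 lie next to each other and are transcribed towards each other, and DP thymocytes are known to use them for rearranging the TCR alpha locus. Cxxc1 is a CXXC finger protein that binds unmethylated CpG and is part of the Setd1 complexes that write H3K4me3, which is why the CpG content of these places is given with the values.

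Sequences were read from mm9 for the places on which the results turn, in lower case with each CpG in capitals. The first 4 are the 250 bases upstream of a start, shown because 2 of these promoters (Rag1 and Rag2) held no listed WT H3K4me3 window and the other 2 (Prkdc and Dclre1c) did. They are Rag1 at chr2:101489690-101489939 on the minus strand, between genes and ending 32 bases before the start, Rag2 at chr2:101464625-101464874 on the plus strand, in an intron of B230118H07Rik, Prkdc at chr16:15637709-15637958 on the plus strand and Dclre1c at chr2:3341153-3341402 on the plus strand, both between genes.
Rag1: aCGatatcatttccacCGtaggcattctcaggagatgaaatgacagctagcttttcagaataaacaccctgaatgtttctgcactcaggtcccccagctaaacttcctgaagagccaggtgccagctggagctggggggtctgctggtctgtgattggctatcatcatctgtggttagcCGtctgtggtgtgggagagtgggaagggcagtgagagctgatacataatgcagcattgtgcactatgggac
Rag2: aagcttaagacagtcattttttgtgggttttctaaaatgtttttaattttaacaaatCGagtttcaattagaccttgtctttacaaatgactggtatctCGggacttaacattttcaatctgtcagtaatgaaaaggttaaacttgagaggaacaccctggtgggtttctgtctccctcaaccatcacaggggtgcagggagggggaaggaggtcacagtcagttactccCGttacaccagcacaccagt
Prkdc: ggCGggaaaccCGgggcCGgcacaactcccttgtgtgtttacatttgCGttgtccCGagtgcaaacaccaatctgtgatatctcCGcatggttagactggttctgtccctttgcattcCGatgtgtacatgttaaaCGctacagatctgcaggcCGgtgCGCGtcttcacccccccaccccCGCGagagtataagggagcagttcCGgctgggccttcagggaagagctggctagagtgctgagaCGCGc
Dclre1c: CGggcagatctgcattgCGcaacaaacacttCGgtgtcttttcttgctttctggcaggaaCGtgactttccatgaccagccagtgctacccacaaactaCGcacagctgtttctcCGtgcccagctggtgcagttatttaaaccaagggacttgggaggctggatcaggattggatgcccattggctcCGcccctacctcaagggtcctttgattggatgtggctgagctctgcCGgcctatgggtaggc
The Rag1 and Rag2 stretches held 3 CpG each, the Dclre1c stretch 8 and the Prkdc stretch 16. The other 3 are the windows with the highest value at a gene outside UTRs, shown because each is the strongest part of a peak described below. They are the H3K4me3 window of Cxxc1-deficient cells upstream of Dntt at chr19:41097601-41097800 (plus strand, between genes, 1 CpG, 0.5 RPM), the H3K4me3 window of Cxxc1-deficient cells in a Lig4 intron at chr8:9976801-9977000 (minus strand, 4 CpG, 0.6 RPM) and the Cxxc1 window at Xrcc6 at chr15:81845201-81845400 (plus strand, in an intron annotated for Xrcc6 and Pppde2, 2 CpG, 0.9 RPM).
Dntt: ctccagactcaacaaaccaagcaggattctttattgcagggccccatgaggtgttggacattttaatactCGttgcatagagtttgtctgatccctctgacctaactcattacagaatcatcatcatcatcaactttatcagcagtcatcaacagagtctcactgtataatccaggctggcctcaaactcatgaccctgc
Lig4: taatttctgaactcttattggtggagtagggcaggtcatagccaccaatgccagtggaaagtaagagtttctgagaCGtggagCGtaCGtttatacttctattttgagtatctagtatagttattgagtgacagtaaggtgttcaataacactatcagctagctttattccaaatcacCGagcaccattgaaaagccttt
Xrcc6: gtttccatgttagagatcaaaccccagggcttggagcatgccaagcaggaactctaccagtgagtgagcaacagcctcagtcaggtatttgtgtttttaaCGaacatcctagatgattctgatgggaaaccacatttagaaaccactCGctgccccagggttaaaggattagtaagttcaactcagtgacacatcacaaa

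The values are tags per M mapped tags (RPM, where M stands for 1000000) in 200-bp windows, and only windows inside called regions are listed. RPM is relative to the tags of each library, so it does not measure the total amount of a mark. The paper reports a lower total H3K4me3 level in Cxxc1-deficient DP thymocytes by an immunoassay. Similar RPM in the 2 genotypes therefore does not mean a similar amount of the mark. A gene without a listed window therefore has an unknown value below the calling threshold and not a value of 0. Windows at most 2 missing windows apart were joined into peaks, of which there were 4352 for Cxxc1, 14237 for H3K4me3 in WT and 2979 for H3K4me3 in Cxxc1-deficient cells. From the step of the RPM values, the depth was 9.1 to 9.23 M tags for Cxxc1 and 9.42 to 9.47 M tags for each H3K4me3 library. The weakest peak of every list held 1.1 RPM, which is 10 tags. At this depth the lists did not reach every gene that marks the cells. Of 10 DP thymocyte markers 9 were matched, and of these 6 had a WT H3K4me3 window at most 1 kb from a transcription start site (TSS) and all 9 in the gene body plus 10 kb upstream, while 3, among them Cd4, had none at a start. Of markers for other lineages, 0 of 4 myeloid and 2 of 6 B lineage markers had a WT window at a start (Ebf1 with 1.7 and Cd79b with 0.4 RPM), and of 3 erythroid markers Klf1 had one (0.9 RPM). No marker of these lineages had a Cxxc1-deficient window at a start. Over all genes, 31.1% had a WT window at a start and 5.86% a Cxxc1-deficient one. In the gene body plus 10 kb upstream 41.5% had a WT window. The part of these lineages in the results was not tested. Intervals are exact 95% Poisson intervals of the tags, which cover counting error only.

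The first comparison counted the genes with a listed window within 1 kb of a TSS. H3K4me3 was listed at 3 of the 8 genes in WT cells (Xrcc6, Prkdc and Dclre1c) and at 3 in Cxxc1-deficient cells (Rag1, Xrcc6 and Lig4), against 31.1% and 5.86% of all protein-coding genes. Thus only Xrcc6 was listed in both genotypes, where 3.99% of all genes were. The nuclease gene Dclre1c and the kinase gene Prkdc were listed in WT alone, as were 27.1% of all genes. The recombinase gene Rag1 and the ligase gene Lig4 were listed in Cxxc1-deficient cells alone, as were 1.87% of all genes and 31.9% of the 1312 genes with a Cxxc1-deficient window at a start. Rag2, Dntt and Xrcc5 had no window in any list, the state of 66.0% of all genes. Cxxc1 was listed at 1 gene, Xrcc6, against 1.96% of all genes. Xrcc6 was therefore 1 of 30 genes, 0.134% of all, with all the lists at a start.

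With the gene body and 10 kb upstream included, WT H3K4me3 remained at the same 3 genes, against 41.5% of all genes. Cxxc1-deficient cells had 4 listed genes, with Dntt added, against 11.0% of all genes. Rag1, Dntt and Lig4 were then listed in Cxxc1-deficient cells alone, 3 of 8 genes against 2.49% of all genes and 22.7% of the 2451 genes with a Cxxc1-deficient window. Xrcc6 stayed the only gene listed in both genotypes (8.47% of all genes), and Prkdc and Dclre1c the genes listed in WT alone (33.0%). Only Rag2 and Xrcc5 had no window in any list, as had 52.1% of all genes. Cxxc1 was still listed at Xrcc6 alone, where 11.1% of all genes had a window. Since 8 genes make a small set and each call comes from 1 library, these counts describe the lists and not a difference between genotypes. Among the stronger 50% of peaks of each list, Xrcc6 in WT was the only gene with H3K4me3 at a start (0 genes in Cxxc1-deficient cells), and Cxxc1 was listed at 0 genes within 500 bp of a start. With the 5′ end of each gene as its only start, Xrcc6 left all the lists, and WT (Prkdc and Dclre1c) and Cxxc1-deficient cells (Rag1 and Lig4) had 2 genes each and none in common.

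**Figure D1:**
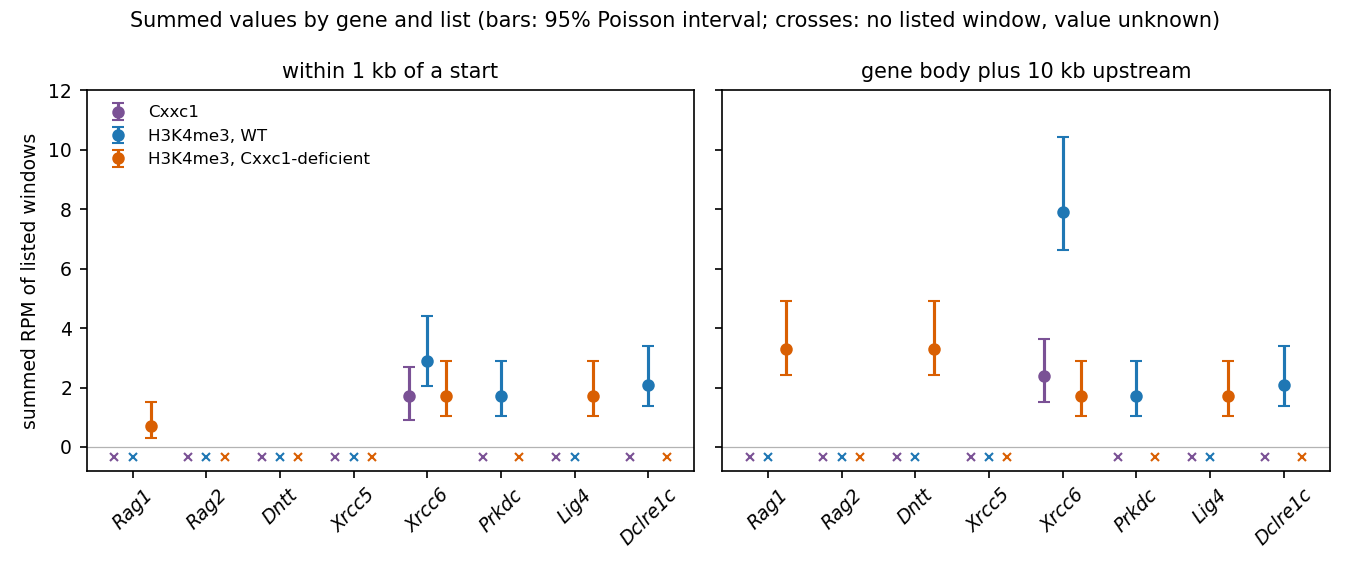
Summed RPM of the listed windows of each gene (y axis) within 1 kb of a start (left) and in the gene body plus 10 kb upstream (right), for Cxxc1, WT H3K4me3 and Cxxc1-deficient H3K4me3. Points carry 95% Poisson intervals and crosses under the zero line mark genes without a listed window, whose value is unknown. Only Xrcc6 has a point in every list, and its WT sum of 7.9 RPM over the gene body stands above the other genes, which lie between 1.7 and 3.3 RPM.

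The recombinase genes were described next, with the 100 kb on each side of the pair. Rag1 (ENSMUSG00000061311.6) lies on the minus strand at chr2:101478439-101489658 and Rag2 (ENSMUSG00000032864.3) on the plus strand at chr2:101464875-101472685. In the region of 224.8 kb, chr2:101364875-101589658, there was no listed window of Cxxc1 and none of WT H3K4me3. The Cxxc1-deficient list had 9 windows there with 3.3 RPM, or 33 tags (interval 2.41 to 4.91 RPM), and all 9 lay within 5 kb of the Rag1 start. Over all genes, 30.7% had no WT window in their span plus 100 kb on each side, 63.5% had no Cxxc1-deficient window, 59.6% had no Cxxc1 window and 1.77% had a Cxxc1-deficient window without a WT one. Neither of the lists without windows allows a fold change, since the level below the calling threshold is unknown.

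The 9 windows made 2 peaks on either side of the Rag1 start. The first, chr2:101488001-101489200, lay in an intron of Rag1, with its near edge 0.46 kb and its midpoint 1.06 kb downstream of the start. Its 5 windows held 0.3, 0.3, 0.4, 0.3 and 0.4 RPM, together 1.7 RPM or 17 tags (1.05 to 2.88 RPM), and 2 of them, with 0.7 RPM or 7 tags (0.3 to 1.53 RPM), fell within 1 kb of the start. The second, chr2:101492401-101493800, lay between genes with its midpoint 3.44 kb upstream, and its 4 windows held 0.4 RPM each, together 1.6 RPM or 16 tags (0.97 to 2.75 RPM). Neither peak covered the start itself, whereas in 79.8% of the genes with a Cxxc1-deficient window at a start the TSS lay inside a peak. Both were weak members of their list, in which 19.2% and 12.3% of peaks were weaker. The first held 9 CpG in 1200 bp and the second 27 in 1400 bp.

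Rag2 had no window in its body, upstream of it or at its starts in any list. The nearest Cxxc1-deficient window was 23.1 kb from a Rag2 start, within the Rag1 peak, and the nearest WT H3K4me3 and Cxxc1 windows were 171.9 and 423.5 kb away. The genes around the pair held few windows. Traf6, an adaptor of immune signalling whose start lies on the Rag1 side, had no window in any list. B230118H07Rik is transcribed from a start 31 bp from that of Rag1 and spans both genes, so the windows at Rag1 were also its windows (0.7 RPM in Cxxc1-deficient cells within 1 kb of its starts) and the genes cannot be told apart. Prr5l, which reaches into the region from the Rag1 side, had 5 WT windows with 2.1 RPM at a start outside it, 147.14 kb from the Rag1 start, and these were the WT windows nearest to Rag1. On the Rag2 side the nearest listed window beyond the pair was 3098.7 kb away for Cxxc1, 7185.3 kb for WT H3K4me3 and 8162.7 kb for Cxxc1-deficient H3K4me3.

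**Figure D2:**
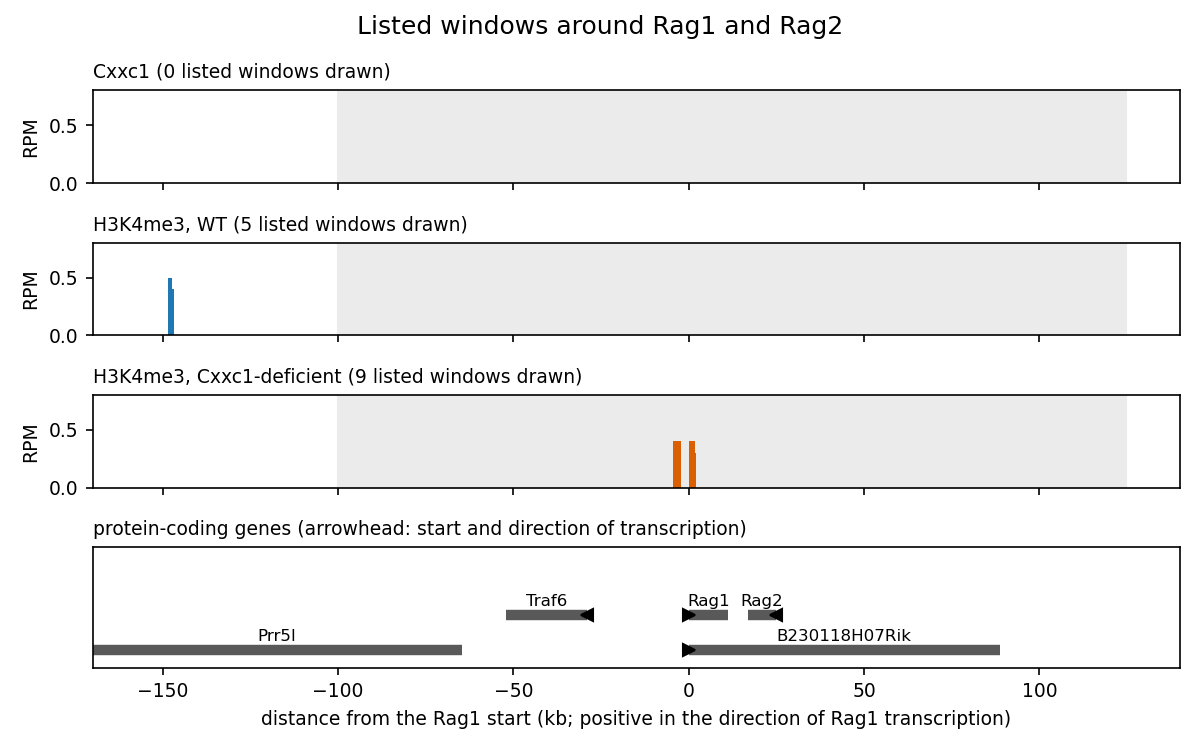
Listed windows around Rag1 and Rag2, with RPM per window on the y axis and the distance from the Rag1 start in kb on the x axis, positive in the direction of Rag1 transcription. Grey marks the pair with 100 kb on each side, and the lowest panel draws the genes, of which Prr5l continues beyond the left edge. The 9 Cxxc1-deficient windows flank the Rag1 start, the 5 WT windows lie at Prr5l outside the grey area and no Cxxc1 window is drawn.

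Dntt, which encodes terminal transferase, lies on the plus strand at chr19:41103765-41134013 (ENSMUSG00000025014.6). It had no window within 1 kb of its start. Upstream of it, at chr19:41095601-41098800 between genes, Cxxc1-deficient cells had an H3K4me3 peak whose near edge was 4.96 kb and whose midpoint was 6.56 kb from the start. Its 11 windows lay between 0.2 and 0.5 RPM and summed to 3.3 RPM, or 33 tags (2.41 to 4.91 RPM). With 3200 bp it was wider than 97.2% of its list and stronger than 94.5%, which sets it apart from the other Cxxc1-deficient peaks at these genes. Its mean per listed window was nevertheless 0.3 RPM (0.22 to 0.45), against 0.38 RPM over the whole list, so that its sum came from its width. It held 29 CpG, with an observed to expected ratio of 0.15. The nearest WT H3K4me3 window was 59.24 kb and the nearest Cxxc1 window 271.24 kb from the Dntt start. The next gene start, that of Blnk, an adaptor of the B cell receptor, was 34740 bp away and had no listed window within 1 kb.

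Of the Ku genes, Xrcc6 had windows in every list and Xrcc5 in none. Xrcc6 (ENSMUSG00000022471.7) lies on the plus strand at chr15:81818265-81870515 with 6 annotated starts, and 1 of them is 206 bp from the opposite start of Pppde2. In WT cells an H3K4me3 peak at chr15:81845601-81847200 covered Xrcc6 starts and UTR, with 7 windows of 0.6, 0.4, 0.5, 0.2, 0.5, 0.3 and 0.4 RPM that summed to 2.9 RPM or 29 tags (2.06 to 4.41 RPM). Cxxc1-deficient cells had a peak at chr15:81846401-81847600, with 5 windows of 0.3, 0.3, 0.4, 0.4 and 0.3 RPM that summed to 1.7 RPM or 17 tags (1.05 to 2.88 RPM). The sums cover different windows, and unlisted windows have unknown values, so no fold change was taken from them. The peaks shared 3 windows, with sums of 1.1 RPM in WT and 1.0 RPM in the other genotype, each relative to its own library. A further 4 windows were listed in WT alone and 2 in Cxxc1-deficient cells alone. WT cells had 2 further peaks inside the gene, in introns at chr15:81854601-81856800 with 2.7 RPM (27 tags) and at chr15:81859201-81860600 with 2.3 RPM (23 tags). The body of Xrcc6 therefore held 21 WT windows with 7.9 RPM or 79 tags (6.62 to 10.43 RPM), against the 5 promoter windows alone in Cxxc1-deficient cells. Pppde2 had the same sums within 1 kb of its start (2.9 and 1.7 RPM), and its annotation also covers the WT promoter peak and both intron peaks, so these windows cannot be ascribed to one of the genes.

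Xrcc6 was also the gene with listed Cxxc1. The Cxxc1 peak, chr15:81844201-81845400, had 4 windows of 0.4, 0.3, 0.8 and 0.9 RPM, in all 2.4 RPM or 22 tags (1.5 to 3.64 RPM), and 86.3% of Cxxc1 peaks were weaker. Its higher windows were those nearer to the gene's promoter. Its midpoint lay 1.15 kb upstream of the nearest start and its edge 0.55 kb, and the 2 windows within 1 kb held 1.7 RPM or 15 tags (0.92 to 2.7 RPM). The WT H3K4me3 peak began after a gap of 1 window, and no window was listed for both Cxxc1 and H3K4me3. The places also differed in sequence, with 14 CpG in the 1200 bp of the Cxxc1 peak (observed to expected ratio 0.25) and 99 in the 1600 bp of the WT H3K4me3 peak (0.68).

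Xrcc5 (ENSMUSG00000026187.8, plus strand, chr1:72353995-72441526), the other Ku subunit, had no listed window at its start, in its body of 87.5 kb or upstream. The nearest windows were 148.61 kb away for Cxxc1, 275.81 kb for WT H3K4me3 and 2498.41 kb for Cxxc1-deficient H3K4me3. The nearest other start, that of Tmem169 at 23026 bp, had none either.

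The kinase and the nuclease that Ku and DNA-PKcs bring to the ends had WT peaks at their starts and nothing in the other lists. At Prkdc (ENSMUSG00000022672.7, plus strand, chr16:15637959-15842332) the WT peak, chr16:15637201-15638000, had 4 windows of 0.4, 0.5, 0.4 and 0.4 RPM, in all 1.7 RPM or 17 tags (1.05 to 2.88 RPM). It was narrow, since only 3.79% of WT peaks were narrower than its 800 bp, and 12.5% were weaker. Mcm4, which encodes a subunit of the replicative helicase, starts 466 bp away in the opposite direction, and the same 1.7 RPM lay within 1 kb of its start, so the mark cannot be ascribed to one of the genes. The body of Prkdc, 204.4 kb long, held no further window. The nearest Cxxc1-deficient window was 1257.84 kb from the start and the nearest Cxxc1 window 258.44 kb.

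At Dclre1c (ENSMUSG00000026648.11, plus strand, chr2:3341403-3381402) the WT peak, chr2:3341201-3342400, covered the start with 5 windows of 0.4, 0.5, 0.4, 0.5 and 0.3 RPM. They summed to 2.1 RPM or 21 tags (1.38 to 3.4 RPM), and 37.4% of WT peaks were weaker. The nearest Cxxc1-deficient window was 71.1 kb and the nearest Cxxc1 window 1120.3 kb away. The nearest other gene, Meig1, starts 1483 bp away and had no window within 1 kb of its start. In all 3 genes with a WT window at a start the TSS lay inside the peak, as in 90.5% of all such genes.

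Lig4 (ENSMUSG00000049717.8, minus strand, chr8:9970020-9977686) showed the opposite order, with a Cxxc1-deficient H3K4me3 peak and no WT one. The peak, chr8:9975801-9977000, lay over the second of its starts, and its 4 windows held 0.4, 0.4, 0.3 and 0.6 RPM, together 1.7 RPM or 17 tags (1.05 to 2.88 RPM). That start itself fell in a gap between listed windows, 0.08 kb from the nearest. In this list 19.2% of peaks were weaker. The nearest WT window was 778.32 kb away, the farthest of the 8 genes. Abhd13 starts 21 bp from Lig4 in the opposite direction and had 0.6 RPM in Cxxc1-deficient cells within 1 kb of its start. A Cxxc1 peak of 1.7 RPM or 16 tags (1.0 to 2.84 RPM) lay in the Abhd13 UTR at chr8:9988201-9989400. Its edge was 10.52 kb upstream of Lig4 and thus just outside the 10 kb counted as upstream.

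**Figure D3:**
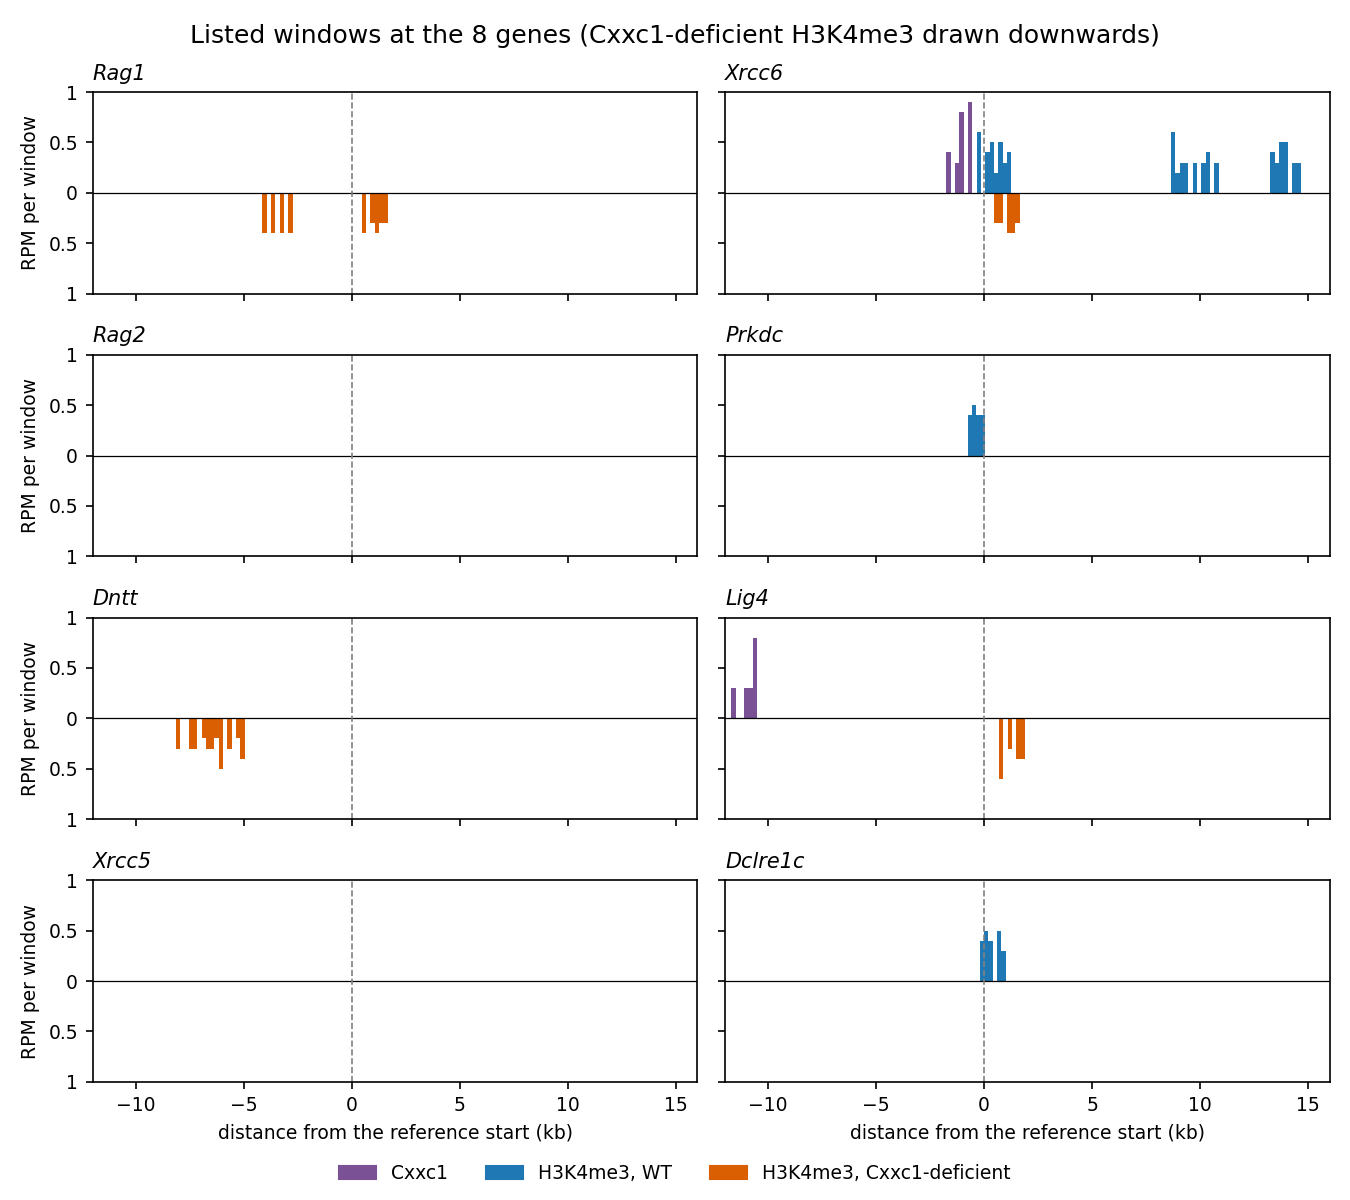
Listed windows of the 8 genes, with RPM per window on the y axis and the distance from the reference start in kb on the x axis, positive in the direction of transcription. WT H3K4me3 and Cxxc1 are drawn upwards and Cxxc1-deficient H3K4me3 downwards. Rag1, Dntt and Lig4 have windows drawn downwards without WT windows, Prkdc and Dclre1c have WT windows alone, Xrcc6 has both and the panels of Rag2 and Xrcc5 are empty.

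The strength of the peaks was then set against their lists. Sums are given for whole peaks and depend on width, so means per listed window were used to compare genes. In WT these were 0.42 RPM for Prkdc (0.26 to 0.72) and Dclre1c (0.28 to 0.68) and 0.41 RPM for Xrcc6 (0.29 to 0.63) within 1 kb of a start, against 0.39 RPM over all WT windows. In Cxxc1-deficient cells they were 0.42 RPM for Lig4 (0.26 to 0.72), 0.35 RPM for Rag1 (0.15 to 0.76) and 0.34 RPM for Xrcc6 (0.21 to 0.58), against 0.38 RPM over the list. All these intervals overlapped, and differences between the genes were not tested. The means cover listed windows only, the lowest of which held 0.2 RPM in each list, and this in itself makes them alike. The Cxxc1 windows of Xrcc6 held 0.85 RPM (0.46 to 1.35) within 1 kb of a start, against 0.43 RPM over all Cxxc1 windows. Those were the 2 highest of the 4 windows of the peak. Over all 4 the mean was 0.6 RPM (0.38 to 0.91), an interval that holds the value of the list.

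The Cxxc1-deficient peaks were among the weaker ones when set against WT peaks of the same width. The weakest of the 1749 WT peaks of 1200 bp, the width of the Xrcc6 peak, the Lig4 peak and the first Rag1 peak, held 1.4 RPM, and 14.1% of them were weaker than 1.7 RPM. Of the 1826 WT peaks of 1400 bp only 3.12% were weaker than the second Rag1 peak (1.6 RPM). Of the 185 WT peaks of 3200 bp, 6.49% were weaker than the Dntt peak and the weakest held 2.5 RPM. At 1400 bp the weakest WT peak held 1.5 RPM. Each weakest value lay below the matching Cxxc1-deficient peaks but inside their counting intervals. A WT signal under the weakest value of its width could have gone unlisted. The absence of WT windows at Rag1, Dntt and Lig4 therefore does not show that WT cells had less H3K4me3 there. The WT peaks of Prkdc and Dclre1c were not set against Cxxc1-deficient peaks of the same width. The Cxxc1-deficient level there is unknown below the calling threshold, so the absence of windows does not by itself show less H3K4me3.

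**Figure D4:**
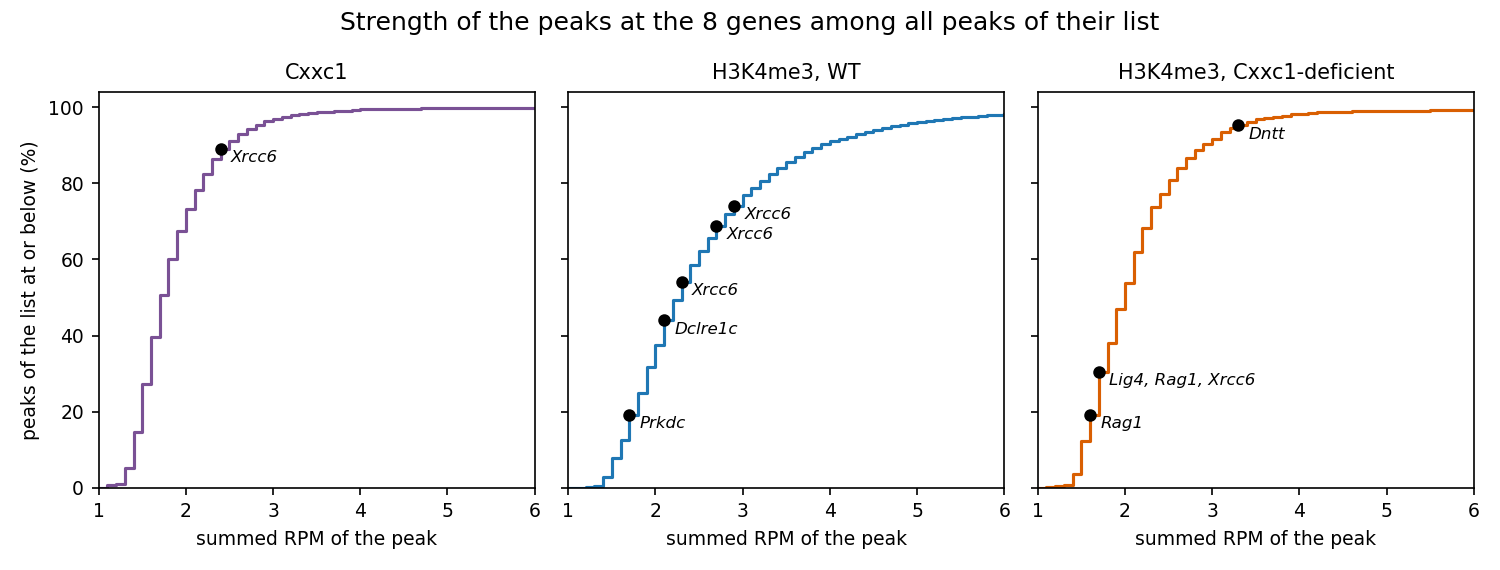
Share of all peaks of a list at or below a summed RPM (y axis, percent) against the summed RPM of the peak (x axis), for each list. Black points mark the peaks in the gene body plus 10 kb upstream of the 8 genes, with gene names beside them. In the Cxxc1-deficient list the Dntt peak (3.3 RPM) lies near the top and the Rag1, Xrcc6 and Lig4 peaks (1.6 and 1.7 RPM) lie in the lower part.

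Distances were measured next, since they need no fixed border. From a start to the nearest WT H3K4me3 window the 8 genes had a median of 103.2 kb, against 27.8 kb over all genes. To the nearest Cxxc1-deficient window their median was 14.0 kb, against 211.8 kb over all genes. This median fell between Dntt (4.96 kb) and Rag2 (23.1 kb). The Rag2 distance was to the Rag1 peak, and the nearest WT windows of both genes were those at Prr5l, so the Rag genes are not separate observations. To the nearest Cxxc1 window the median of the 8 genes was 264.8 kb, against 161.0 kb. The range over the 8 genes was wide, from 0 to 778.32 kb in WT and from 0 to 2498.41 kb in Cxxc1-deficient cells, and no test was made.

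Genes with the most similar values were sought by the Euclidean distance over 6 values, the log2 of summed RPM plus 0.1 at the start and in the gene body plus 10 kb upstream in each list. Nearest to Rag1 were B230118H07Rik (distance 0, the same windows), Sox9 (0.387) and Gm885 (0.597), and nearest to Dntt were Pkd1l2 and Taf3 (0.082 each) and Pcsk7 (0.087). Xrcc6 had Cdk4 (0.672), Prpf6 (0.91) and Elf2 (0.964), all with windows in each list. For Lig4 20 genes had identical values, the first by name being Capza2, Clp1 and Coq5. For Prkdc 130 genes and for Dclre1c 156 genes did so, the first by name being 1110037F02Rik, 1110038F14Rik and 1110057K04Rik for Prkdc, and 0610007P08Rik, 1110002L01Rik and 1110008L16Rik for Dclre1c. Places without a listed window entered as 0 RPM although their value is unknown, so these matches rest mostly on windows absent from the lists. The values of Prkdc, Dclre1c and Lig4 were not particular to them.

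CpG content was lowest at the genes that act in lymphocytes alone. In the 1 kb around the reference start, taken as the most 5′ start of complete transcripts, Rag2, Rag1 and Dntt held 8, 13 and 14 CpG, with observed to expected ratios of 0.179, 0.257 and 0.25. The genes of general end joining held more, with 32 for Dclre1c (0.47), 35 for Xrcc5 (0.609), 37 for Xrcc6 (0.511), 61 for Prkdc (0.839) and 74 for Lig4 (0.875). Other starts lay inside the peaks, with 75 CpG (0.749) around the Xrcc6 start at base 81846799 of chromosome 15 and 50 (0.692) around the Lig4 start at base 9976323 of chromosome 8. The median was 33.5 for the 8 genes, 42 for all genes, 69 for genes with a WT window alone at a start, 60 for genes with a Cxxc1-deficient window alone and 22 for those with neither. At the reference start only Lig4 passed as CpG-rich (at least 55% GC and a ratio of at least 0.65), against 35.9% of all genes. At the starts inside the peaks this was the other way round. The Xrcc6 start at base 81846799 passed with 63.6% GC, and the Lig4 start at base 9976323 did not, with 53.7% GC. Thus Rag1 was listed in Cxxc1-deficient cells at a CpG content below the median of unlisted genes. Lig4, in the same list, lay above the median of genes with a WT window alone at its reference start (74), which is outside its peak. The Lig4 start inside the peak (50) lay below that median and below the one of genes with a Cxxc1-deficient window alone. Xrcc5 was not listed although it held more CpG than Dclre1c. Opposite starts within 1 kb were present at 3 of the 8 genes (Xrcc6, Prkdc and Lig4), against 9.57% of all genes.

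Short motifs were counted on both strands from 250 bases before to 50 after the reference start. CG, the letters Cxxc1 is known to bind when unmethylated, occurred 2 times at Rag1 and Dntt, 3 at Rag2, 9 at Xrcc5, 12 at Dclre1c, 14 at Xrcc6, 25 at Prkdc and 30 at Lig4, with a median of 12 over all promoters, of which 95.2% held it. CCAAT was present in 4 of the 8 (Rag1, Xrcc5, Prkdc and 3 times in Dclre1c), against 37.9% of all promoters. TGTGGT, the core letters of Runx sites, occurred 2 times at Rag1 and in none of the others, against 15.2% of all promoters. CAGGTG, an E-box, occurred 1 time at Rag1 and in none of the others, against 19.6%. No motif contains another, and a match is a description of the letters and not of binding.

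The other genes of the pathway were taken from lists. Of 20 end joining and break response partners, 9 had a WT H3K4me3 window at a start (45%, median 2.4 RPM, the same as the median of all listed genes) and 2 a Cxxc1-deficient one (10%), with none in both. Those 2 were Aptx, which removes adenylate from aborted ligations (2.6 RPM), and Polm, a polymerase of end joining (1.3 RPM), and like Rag1 and Lig4 they were listed in Cxxc1-deficient cells alone. None had Cxxc1 at a start. Over all genes the shares at a start were 31.1% in WT, 5.86% in Cxxc1-deficient cells and 1.96% for Cxxc1. Both genotypes were listed at 3.99% of all genes and Cxxc1-deficient cells alone at 1.87%. In the gene body plus 10 kb upstream the counts were 12 in WT, 3 in Cxxc1-deficient cells and 1 for Cxxc1 (Trp53bp1, 1.9 RPM), against 41.5%, 11.0% and 11.1% of all genes. Xrcc4, the partner of Lig4, and Nhej1 had no window in any list. Of 12 homologous recombination genes, 6 had a WT window at a start (50%) and 2 a Cxxc1-deficient one (16.7%), both listed also in WT. They were Brca1 (1.1 RPM in WT, 1.6 RPM in the other genotype) and Xrcc3 (2.9 and 1.8 RPM).

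Of 12 factors known to act on Rag1 and Rag2 transcription, 11 had a WT window at a start (91.7%, median 3.9 RPM) and 4 a Cxxc1-deficient one (33.3%), and all 4 were also listed in WT. These were Runx1 (6.1 RPM in WT, 1.6 RPM in the other genotype), Foxo1 (4.4 and 2.1 RPM), Lef1 (4.3 and 2.5 RPM) and Gata3 (1.8 and 2.9 RPM). At a start 7 of the factors were listed in WT alone, as were 27.1% of all genes. Satb1, a chromatin organiser of thymocytes, was the 1 with the highest WT sum (7.0 RPM). In its gene body plus 10 kb upstream Cxxc1-deficient cells had 1.5 RPM. None of the 12 factors had Cxxc1 at a start, but 5 had it in the gene body plus 10 kb upstream, where 12 were listed in WT and 10 in Cxxc1-deficient cells. The shares over all genes there were 11.1% for Cxxc1, 41.5% in WT and 11.0% in Cxxc1-deficient cells. At a start they were 1.96% for Cxxc1, 31.1% in WT, 5.86% in Cxxc1-deficient cells and 3.99% in both genotypes. Of the 9 DP thymocyte markers, Cd8a (2.7 and 1.5 RPM) and Cd3e (1.8 and 1.9 RPM) were listed at a start in both genotypes and Tcf7 had Cxxc1 at a start (2.0 RPM).

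**Figure D5:**
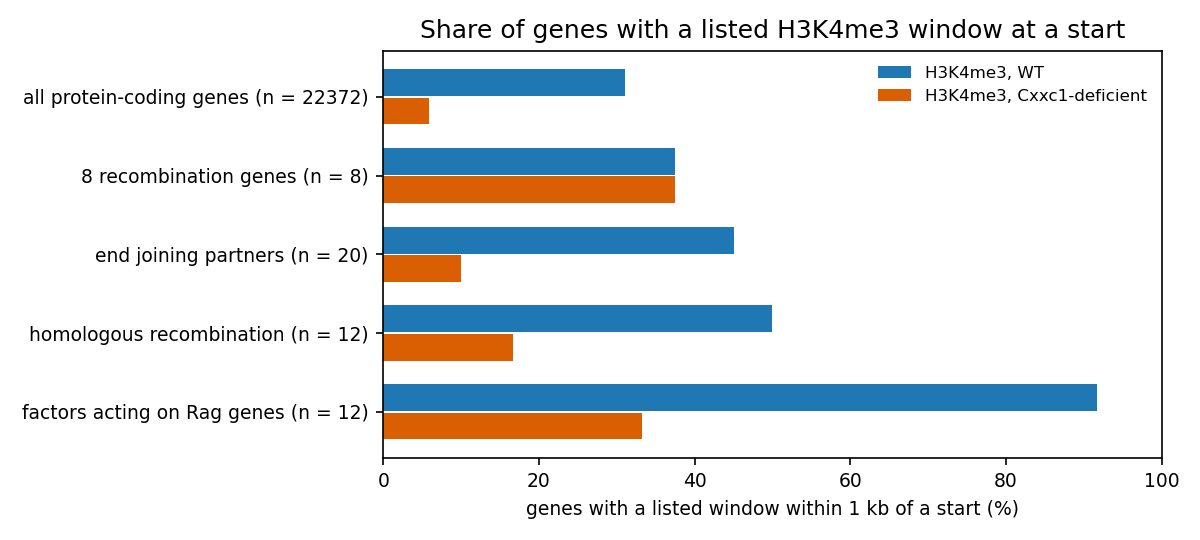
Percent of genes with a listed H3K4me3 window within 1 kb of a start (x axis) in WT and Cxxc1-deficient cells, for all protein-coding genes and for each list, with the number of genes in brackets. Bars start at 0 and carry no error since each list came from 1 library. The 8 recombination genes have equal shares in both genotypes (37.5%), while all genes and the other 3 lists drawn have a longer WT bar.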

How the data were processed

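ChIP-seq of Cxxc1 and H3K4me3 was measured in DP thymocytes, with 5 samples and 3 processed lists. The WT and the Cxxc1-deficient H3K4me3 samples each had their own list, while the Cxxc1 list was not tied to a single sample. The Cxxc1-deficient Cxxc1 ChIP and the WT input were not analysed here. Per the study's methods, uniquely mapped reads (mm9) went into SICER with the Cxxc1-deficient ChIP and input as controls. CASAVA 1.8.2 and SICER 1.1 are named in the submitters' processing notes. The aligner, the treatment of duplicates and the control of the H3K4me3 lists are not given in the sources used here, and all of these bear on what was called. The authors deposited RPM values at 1 decimal for the 200-bp windows of each called region. Tags were these values divided by the smallest step, which also gave depth (9.1 to 9.47 M tags).

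Windows at most 2 missing windows apart were joined into peaks. Overlap meant at least 1 bp. Genes were the protein-coding genes of GENCODE vM1 on mm9, and a TSS was the start of any protein-coding transcript. Sums were made in Python 3.11.15 with pandas 2.3.3 and numpy 2.4.6, with exact 95% Poisson intervals (scipy 1.17.1), and the code was tested on simulated data. As a group was 1 library, no test between groups was run. Percentiles are shares of a list's peaks with a lower value. Members and lists were chosen with earlier results of these data known. Named genes were the 8 members, list genes with a Cxxc1 or Cxxc1-deficient window at a start, genes around Rag1 and Rag2, the nearest start to each member and the 3 genes with the most similar values. Cd4, Cd79b, Ebf1, Klf1, Nhej1, Satb1, Trp53bp1 and Xrcc4 were named after their values were seen. A further list gene is not reported here by name. Alternatives were other distances from a start or upstream, the stronger 50% of peaks, window midpoints, whole peaks, the 5′ end alone, a narrower Rag region and, chosen after seeing the data, complete transcripts alone.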

Additional observations from a re-analysis of the deposited data

How the results depend on the processing

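No paired analysis was possible because no result comes from a test, and with 1 library per group no replicate could be left out. Of 63 alternative values for 16 results, 53 stayed within the limits of the reported value (within 1.5 times for a count, within the Poisson interval for a sum) and 10 moved. With the stronger 50% of each list, the genes with H3K4me3 at a start fell to 1 in WT (Xrcc6) and 0 in Cxxc1-deficient cells, those with it in the gene body plus 10 kb upstream to 1 in WT (Xrcc6) and 1 in Cxxc1-deficient cells (Dntt), and the sum around Rag1 and Rag2 in Cxxc1-deficient cells to 0 RPM. This follows from the construction, since all other H3K4me3 peaks at a start or at Rag1 were below the median of their list. Cxxc1 was listed at 0 genes within 500 bp of a start and at 0 when the 5′ end of each gene alone was used, which also took Xrcc6 from both H3K4me3 lists (2 genes left in each). It was listed at 2 genes (Xrcc6 and Lig4) with 50 kb upstream. The Cxxc1-deficient sum at the Rag1 start was 1.7 RPM within 2 kb and 1.7 RPM for whole peaks, against 0.7 RPM within 1 kb. The depth allows no statement about places below about 10 tags per peak. For wider peaks this limit is higher, since the weakest WT peaks held 1.4 RPM at 1200 bp and 2.5 RPM at 3200 bp.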
